A study of Caenorhabditis elegans with 60 samples.

Results

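The genes described here are 81 protein-coding genes of Caenorhabditis elegans that are known only by a sequence name and whose messenger RNA was higher in worms exposed to 4 g/L hexafluoropropylene oxide dimer acid (HFPO-DA) than in unexposed worms. They were chosen from the readout itself. Of the 10298 genes in the deposited table, 3911 carried a symbol that was only the sequence name, and 2935 of these had a mean value of at least 10 over the 60 libraries. In 177 of them the mean log2(value + 1) of the 4 wells at 4 g/L lay at least 1.2 above that of the 4 control wells. In 81 of the 177, every well at 4 g/L was also above every control well, while 96 overlapped and were left out. The differences between 4 g/L and the control that follow are therefore a description of the chosen genes and carry no test.

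The samples were whole worms of the wild-type strain N2 (Bristol), from cultures fed on E. coli HB101, sampled 48 h after first-stage larvae had been placed in the exposure medium. Each sample was 1 well of about 1000 pooled worms. The groups were 4, 2, 1, 0.5, 0.25 and 0.125 g/L HFPO-DA, 8 lower concentrations from about 0.013 mg/L to about 63 mg/L, and a control of the same medium without HFPO-DA, with 4 replicate wells in each of the 15 groups. Nothing in the labels says that the wells came from separate worm cultures, so the p-values measure the spread between wells. Because whole worms were extracted, a change in the number of cells of a type and a change in the RNA of each cell cannot be told apart.

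HFPO-DA is a perfluorinated ether acid used in the making of fluoropolymers. In C. elegans a gene receives a letter-number name once it has been placed in a gene class, by a mutant, a function or a related sequence. Until then it is called by the genomic clone on which it was predicted and a number on that clone, as in T16G1.6, so neighbours on a clone have similar names. The annotation used here gives these 81 genes a position and an exon structure but no product, and no role is given to them below. Of all identifiers in the table, 10294 matched the WBcel235 annotation. No sequence is printed, since a genome or protein table was not used here.

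Read numbers could be recovered from the deposited values, and libraries held 462117 to 4522107 reads. The 4 g/L libraries were shallow, with 737039 to 1249951 reads, against 999346 to 1914706 in the control libraries. Summed over 4 wells, the 81 genes had 55 to 1946 reads each (median 135) at 4 g/L and 17 to 948 (median 60) in the control. Replicate 4 at 4 g/L and 1 well of a low concentration had residuals spread 1.48 times as widely as the median library. Libraries also shared deviations within sets of 12 consecutive sample numbers, which the labels do not describe. Counted by sample number, the wells at 4, 2 and 1 g/L lay in sets 1 to 4 and the control wells in sets 2 to 5. No well at 4 g/L was in the set of the control well of its replicate number, so concentration and set are partly confounded.

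The largest difference was that of T16G1.6 (WBGene00011800, chromosome V, 12935538 to 12937174, minus strand, WBcel235, 7 exons). Its deposited values, which are normalised signals on a linear scale, were 288, 378, 277 and 335 in the 4 wells at 4 g/L, against 6.35, 8.91, 3.12 and 8.28 in the control wells. No well at 4 g/L came near a control well, and the 4 treated wells stood close together. The mean was 319.6 ± 46.4 at 4 g/L and 6.66 ± 2.60 in the control (SD, n = 4 each), a log2 difference of 5.45 ± 0.33 (SE). The 4 wells at 4 g/L held 809 reads and the control wells 17, a ratio of 71.2 per unit of library size with an exact binomial 95% interval of 44.2 to 123. This interval and those below cover counting error only.

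ZK742.3 (WBGene00022813, V, 7808367 to 7809912, minus strand) came next, with 504, 277, 396 and 345 in the wells at 4 g/L, against 20.4, 18.7, 21.5 and 16.5 in the control wells. All 4 treated wells were far above the narrow band of the control wells. The log2 difference was 4.21 ± 0.20 (SE), with 925 reads at 4 g/L and 66 in the control, a ratio of 21.0 (16.3 to 27.3). All 1546 bases of ZK742.3 lie inside xpo-1, the gene of a nuclear exportin, on the opposite strand. The log2 difference of xpo-1 itself was -0.02 at 4 g/L against the control. The sources used here do not say whether reads were counted by strand, so the reads of such pairs cannot be told apart. In all, 24 of the 81 genes overlap another protein-coding gene somewhere in their span. How often this holds over all genes is not given here.

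F58B4.5 (V, 10932693 to 10934245, plus strand) had 223, 163, 143 and 170 at 4 g/L, against 34.1, 20.3, 18.1 and 25.8 in the control wells, a log2 difference of 2.80 ± 0.29 (SE). Y51H4A.5 (IV, 16522529 to 16526138, minus strand) had 62.9, 48.4, 45.5 and 54.7 at 4 g/L, against 4.39, 4.41, 10.0 and 12.7 in the control wells, a log2 difference of 2.71 ± 0.29 (SE). In both genes the lowest treated well stood far above the highest control well. C53B4.3 (IV, 8970869 to 8973316, minus strand) had the tightest treated wells of all 81 genes, 117, 103, 114 and 103.9 at 4 g/L, against 24.3, 18.7, 21.1 and 21.9 in the control.

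Other large differences came from wells that stood far apart. Y47D7A.13 (V, 4434992 to 4435927, minus strand, 1 exon) had 35.1, 169, 22.8 and 369 at 4 g/L, against 5.68, 4.00, 12.5 and 3.93 in the control. Its neighbour Y47D7A.15 (V, 4431695 to 4433187, minus strand) had 51.3, 238, 26.8 and 473 at 4 g/L, against 19.2, 3.26, 13.9 and 14.7 in the control. In both genes replicates 2 and 4 were several times higher than replicates 1 and 3, and the SD was larger than the mean, with coefficients of variation of 108% and 105%. The log2 differences were 3.64 ± 0.52 and 3.25 ± 0.49 (SE). Y41C4A.32 (III, 11721706 to 11723607, plus strand) had 43.4, 102, 29.8 and 99.0 at 4 g/L, against 4.76, 6.94, 7.14 and 8.60 in the control. F45E4.5 (IV, 7628166 to 7629042, minus strand) had 21.1, 115, 30.8 and 96.9 at 4 g/L, against 15.2, 9.95, 19.0 and 5.66 in the control. In these 2 genes replicates 2 and 4 were again the highest, with replicate 2 above replicate 4.

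**Figure D1:**
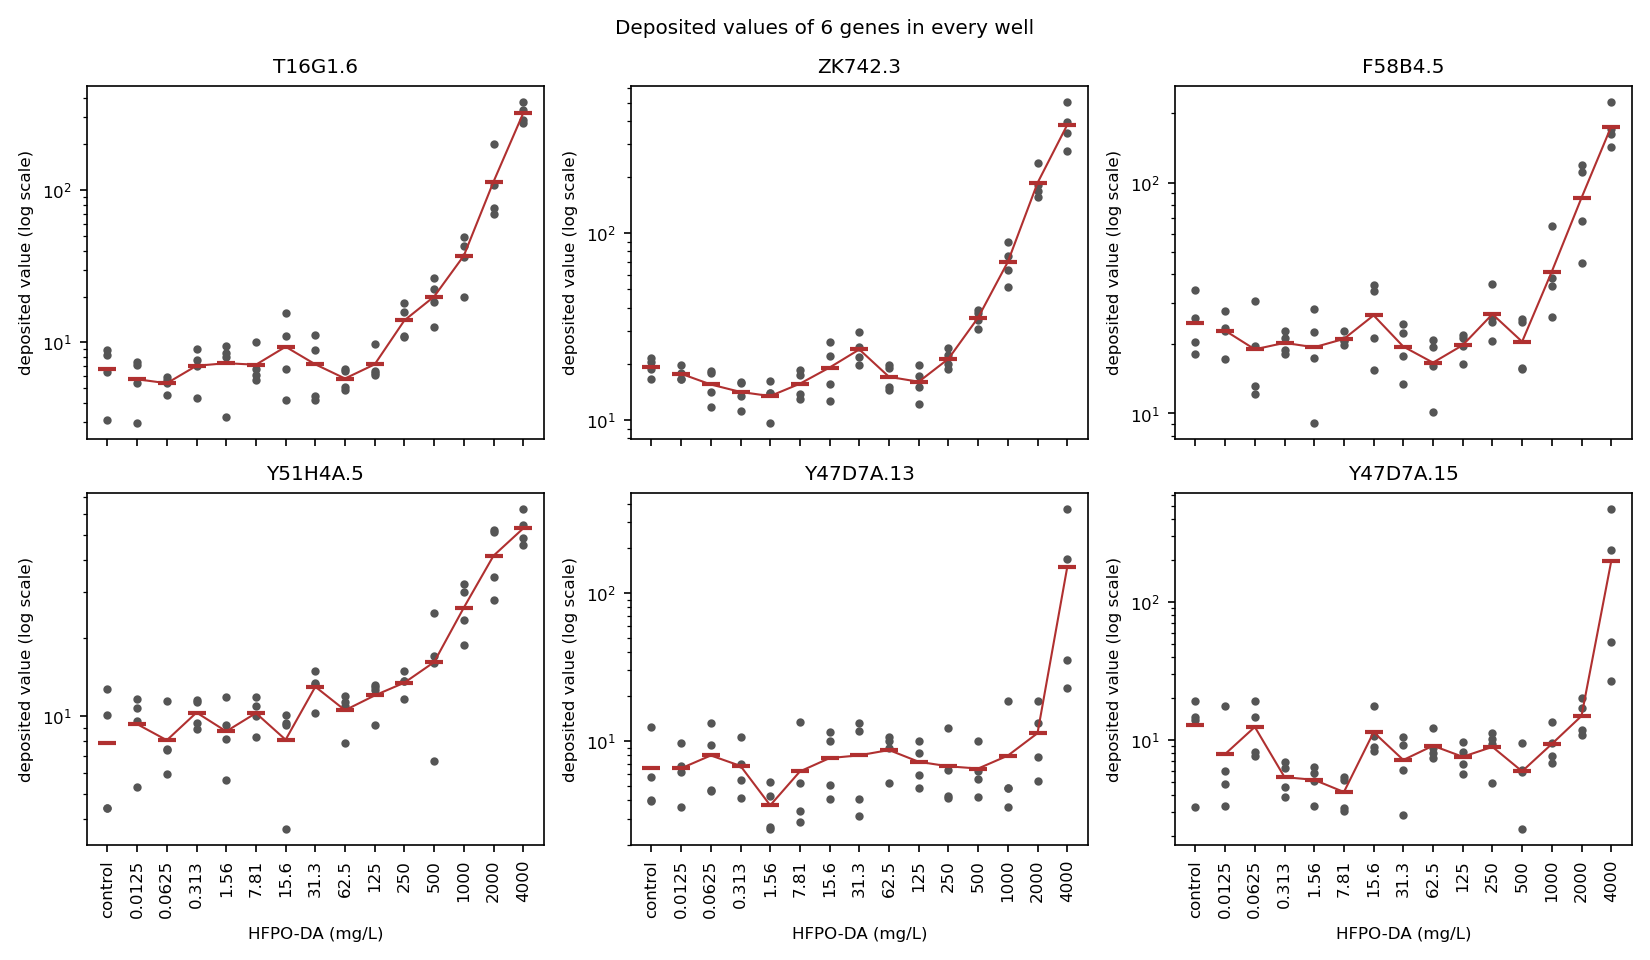
Deposited values on a log scale of 6 genes in each of the 60 wells (points), by HFPO-DA concentration in mg/L with the control on the left. Horizontal bars are means of 4 wells, joined by a line over the 14 concentrations. The means of T16G1.6 and ZK742.3 climb in steps from 500 to 4000 mg/L, while those of Y47D7A.13 and Y47D7A.15 stay below 20 up to 2000 mg/L and the 4 wells at 4000 mg/L are widely spread.

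Over all 81 genes the log2 difference between 4 g/L and the control had a median of 1.49 and ranged from 1.201 to 5.45, beside a median of -0.05 over all genes. A criterion of the rule, every treated well above every control well, was met by 8.11% of the 10293 genes tested. In limma, 14.7% of all genes were called higher at 4 g/L than in the control at an adjusted p under 0.05. Set against the 32 wells of the 8 lowest concentrations, which the rule did not use as a baseline, the differences at 4 g/L ran from 1.06 to 5.41 (median 1.56). The control itself lay -0.36 to 0.59 from those 32 wells in the 81 genes (median 0.07).

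Lower concentrations entered the rule only through the mean of at least 10 over the 60 libraries. Some of the genes reached that mean through 4 g/L. Y47D7A.13 had a mean of 149 there and group means of 3.69 to 11.3 elsewhere. The lower concentrations were tested in the 52 libraries outside 4 g/L and the control. Each concentration was compared with the 32 wells of the 8 lowest concentrations, by limma on log2(value + 1), with Benjamini-Hochberg adjustment over all 10293 genes. Of the 81 genes 14 rose at 2 g/L (17.3%), where 0.758% of all genes were called higher, and 0 fell, where 0.466% were called lower. Then 4 rose at 1 g/L (4.94%), where 0.223% of all genes were called higher, and 0 fell, where 0.0583% were called lower. At 0.5 g/L, 2 rose (2.47%; 0.068% of all genes). At 0.25 g/L 0 of the 81 were called higher by limma (0.0194% of all genes), with 5 higher at an unadjusted p under 0.05 (1.88% of all genes). At 0.125 g/L 0 were called by limma (0% of all genes), with 1 higher at an unadjusted p under 0.05 (0.991% of all genes). The count at each of these 2 concentrations was also 0 with voom on the reads. With the sets of 12 sample numbers as a term on the deposited values, 22 of the 81 genes and 210 of all 10293 were called higher at 2 g/L.

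The 2 genes called from 0.5 g/L upward were T16G1.6 and ZK742.3. T16G1.6 had 22.3, 12.7, 26.5 and 18.5 at 0.5 g/L, against 2.98 to 15.63 (median 6.58) in the 32 low wells. One of the 4 wells lay inside the range of the low wells. The log2 difference was 1.44 ± 0.25 (SE, limma adjusted p = 0.00117) and was no longer called without replicate 3 at 0.5 g/L, without replicate 1 of every group or without replicate 3 of every group (adjusted p up to 0.208). ZK742.3 had 34.5, 37.5, 38.6 and 30.7 at 0.5 g/L, against 9.70 to 29.6 (median 16.4) in the low wells. None of its 4 wells overlapped the 32 low wells, and the log2 difference was 1.04 ± 0.15 (SE, limma adjusted p = 2.71e-05).

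T16G1.6 went on to 36.5, 49.1, 42.8 and 19.9 at 1 g/L and 69.8, 200.1, 75.99 and 108 at 2 g/L, with log2 differences from the low wells of 2.27 ± 0.25 (SE, limma adjusted p = 4.36e-09) and 3.80 ± 0.25 (adjusted p = 3.01e-17). ZK742.3 had 63.9, 90.03, 51.5 and 75.4 at 1 g/L and 169, 181, 156 and 238 at 2 g/L, with log2 differences of 1.99 ± 0.15 (SE, limma adjusted p = 2.76e-14) and 3.39 ± 0.15 (adjusted p = 3.86e-24). In both genes every well at 1 and at 2 g/L was above the highest of the 32 low wells. Below the onset, T16G1.6 had 10.9, 11.0, 18.2 and 15.8 at 0.25 g/L, a log2 difference of 0.97 ± 0.25 (SE) that did not pass the threshold (limma adjusted p = 0.503, range 0.288 to 1.00 over the alternatives). At 2 g/L the partner gene xpo-1 differed from the low wells by 0.00 on the log2 scale (limma adjusted p = 0.993).

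F58B4.5 and Y51H4A.5 were called from 1 g/L upward. Y51H4A.5 had 30.1, 32.3, 18.8 and 23.4 at 1 g/L and 34.4, 52.1, 28.0 and 51.3 at 2 g/L, against 3.64 to 14.8 (median 10.0) in the low wells. No well at either concentration overlapped the low wells, with log2 differences of 1.35 ± 0.21 (SE, limma adjusted p = 2.16e-05) and 1.98 ± 0.21 (adjusted p = 3.26e-10). F58B4.5 had 35.5, 64.6, 38.5 and 26.1 at 1 g/L and 44.9, 118.9, 68.3 and 112 at 2 g/L, against 9.14 to 36.0 (median 20.7) in the low wells. At 1 g/L 2 of its wells lay inside the range of the low wells. Its log2 difference of 0.95 ± 0.22 (SE, limma adjusted p = 0.0376) at 1 g/L lost its call in 9 of 22 alternatives, including without replicate 1, 2 or 3 at 1 g/L (adjusted p up to 0.591 over the alternatives), and that at 2 g/L was 1.96 ± 0.22 (adjusted p = 4.98e-09).

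The other 10 genes called at 2 g/L were called there alone. T16G1.7 (V, 12932941 to 12935112, minus strand), next to T16G1.6, had 52.8, 44.0, 54.0 and 50.7 at 2 g/L, against 12.7 to 30.0 (median 18.5) in the low wells, a log2 difference of 1.35 ± 0.17 (SE, limma adjusted p = 1.43e-07). F42A10.7 (III, 6177916 to 6178686, minus strand) had 125.5, 95.9, 118 and 121 at 2 g/L, against 30.1 to 75.6 (median 48.0) in the low wells, a log2 difference of 1.19 ± 0.18 (SE, limma adjusted p = 1.55e-05). C53B4.3 had 36.2, 47.6, 35.9 and 59.5 at 2 g/L, against 6.66 to 27.2 (median 15.62) in the low wells, a log2 difference of 1.37 ± 0.21 (SE, limma adjusted p = 1.56e-05). None of the wells at 2 g/L of these 3 genes overlapped the low wells, which held for 7 of the 81 genes and for 0.291% of all genes.

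W06A7.4 (V, 14824424 to 14829231, plus strand) had 17.1, 22.8, 17.3 and 43.2 at 2 g/L, against 3.47 to 19.0 (median 9.94) in the low wells, and Y41C4A.32 had 14.6, 18.3, 14.8 and 8.27, against 2.56 to 10.5 (median 6.06). In each, 1 or 2 wells overlapped the low wells. Their log2 differences were 1.26 ± 0.29 (SE, limma adjusted p = 0.00911) and 1.096 ± 0.22 (adjusted p = 0.00198). The call of W06A7.4 was lost without replicate 4 at 2 g/L (adjusted p = 0.257) and that of Y41C4A.32 without replicate 2 at 2 g/L (adjusted p = 0.0536). Each was also lost without 2 of the replicate numbers left out of every group, 2 and 4 for W06A7.4 and 1 and 2 for Y41C4A.32. The remaining 5 called genes, Y39G8B.9, E04F6.6, Y71F9B.1, ZC116.1 and T19D12.4, had log2 differences of 0.91 to 1.15 at 2 g/L. All 510 bases of Y71F9B.1 lie inside sop-3 on the opposite strand, and sop-3 differed by 0.00 at 2 g/L (limma adjusted p = 0.993).

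A slope over the rank of the 13 concentrations up to 2 g/L was called rising in 9 of the 81 genes (11.1%; 0.321% of all genes). The 9 were T16G1.6, ZK742.3, Y51H4A.5, F58B4.5, C53B4.3, F42A10.7, T16G1.7, E04F6.6 and Y39G8B.9, all of them also called at 2 g/L. The count fell to 4 without replicate 2 of every group and to 5 without replicate 4 of every group.

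**Figure D2:**
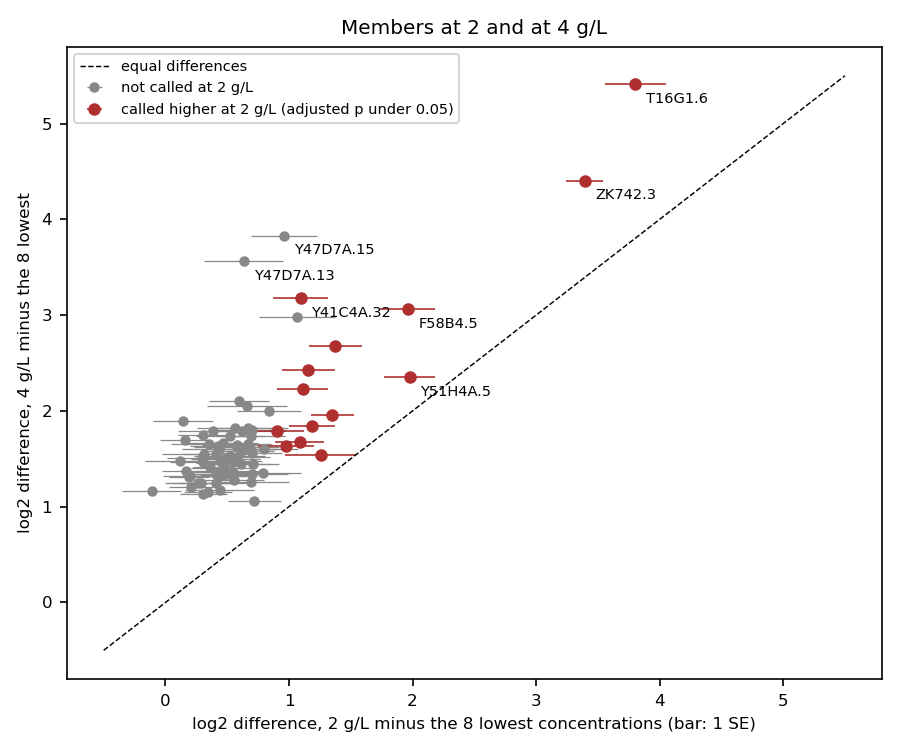
Log2 differences of the 81 genes from the mean of the 8 lowest concentrations at 2 g/L (horizontal axis, bars of 1 SE) and at 4 g/L (vertical axis); the dashed line marks equal differences. The 14 genes called at 2 g/L are in red. T16G1.6 and ZK742.3 stand at the upper right, and Y47D7A.13 and Y47D7A.15 have large differences at 4 g/L with differences of 0.63 and 0.96 at 2 g/L.

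The genes not called at 2 g/L lay mostly on the same side of the low wells. A difference above 0 was found at 2 g/L in 80 of the 81 genes, with a median of 0.55 on the log2 scale, where 51.6% of all genes were above 0 with a median of 0.01. The exception was T23F2.2, at -0.11. At 1 g/L 76 of the 81 were above 0, with a median of 0.30, against 50.6% of all genes and a median of 0.00. At 0.5 g/L this was 29 of 81 (35.8%), with a median of -0.08, against 53.4% of all genes. At 0.25 g/L it was 30 of 81 (37.0%), with a median of -0.04, against 53.3% of all genes. The 106 genes with a letter-number name that pass the same thresholds had medians of 0.58, 0.28 and -0.03 at 2, 1 and 0.5 g/L, and 25 of these 106 (23.6%) were called higher at 2 g/L.

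The dose shape was summarised as the share of the linear rise from the low wells to 4 g/L that was already present at a lower concentration. By 2 g/L the 81 genes had reached a median of 22.0% of it (range -9.74% to 79.7%), and at 1 g/L 8.96% (range -8.82% to 38.0%). In 76 of the 81 genes less than 50% of the rise was present at 2 g/L, and in 52 less than 25%. The 106 named genes had medians of 22.4% and 5.73% at the same concentrations.

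The highest shares at 2 g/L were 79.7% in W06A7.4, 73.6% in Y51H4A.5 and 64.1% in F01D5.3. Without replicate 4 at 2 g/L they were 48.0%, 65.9% and 39.2%. Y51H4A.5 was the gene furthest along at 1 g/L, with 38.0%. ZK742.3 was at 46.5%, F58B4.5 at 42.3% and T16G1.6 at 34.1% at 2 g/L. On the log2 scale the step between 2 and 4 g/L was larger than that between 1 and 2 g/L in 72 of the 81 genes, with medians of 1.01 and 0.31. This held for 47.2% of all genes, but the 81 genes were chosen for high values at 4 g/L, which by itself favours a large upper step and low shares at 2 g/L.

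The lowest share at 2 g/L was that of T23F2.2, at -9.74%, followed by F45E4.5 at 2.36%, Y47D7A.13 at 3.06% and Y47D7A.15 at 3.75%. Y47D7A.13 had 7.83, 18.7, 5.37 and 13.3 at 2 g/L, against 2.54 to 13.6 (median 5.39) in the low wells. Y47D7A.15 had 11.7, 16.9, 10.9 and 20.1 at 2 g/L, against 2.88 to 19.2 (median 6.63) in the low wells. In each gene 3 of the 4 wells overlapped the low wells. The log2 differences at 2 g/L, 0.63 ± 0.32 and 0.96 ± 0.26 (SE), did not pass the threshold (limma adjusted p = 0.378 and 0.053), and that of Y47D7A.15 did in 6 of 22 alternatives (range of adjusted p 0.0144 to 0.455).

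F43C11.3 (II, 2353312 to 2354373, plus strand) had 73.9, 116, 50.3 and 305 at 4 g/L, against 37.2, 14.8, 15.4 and 17.2 in the control. Its highest treated well was over 2 times the next. In the 2 g/L wells it had 16.8, 45.6, 17.3 and 44.0, with 2 wells above the low wells and a log2 difference of 1.07 ± 0.31 (SE, limma adjusted p = 0.0754).

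**Figure D3:**
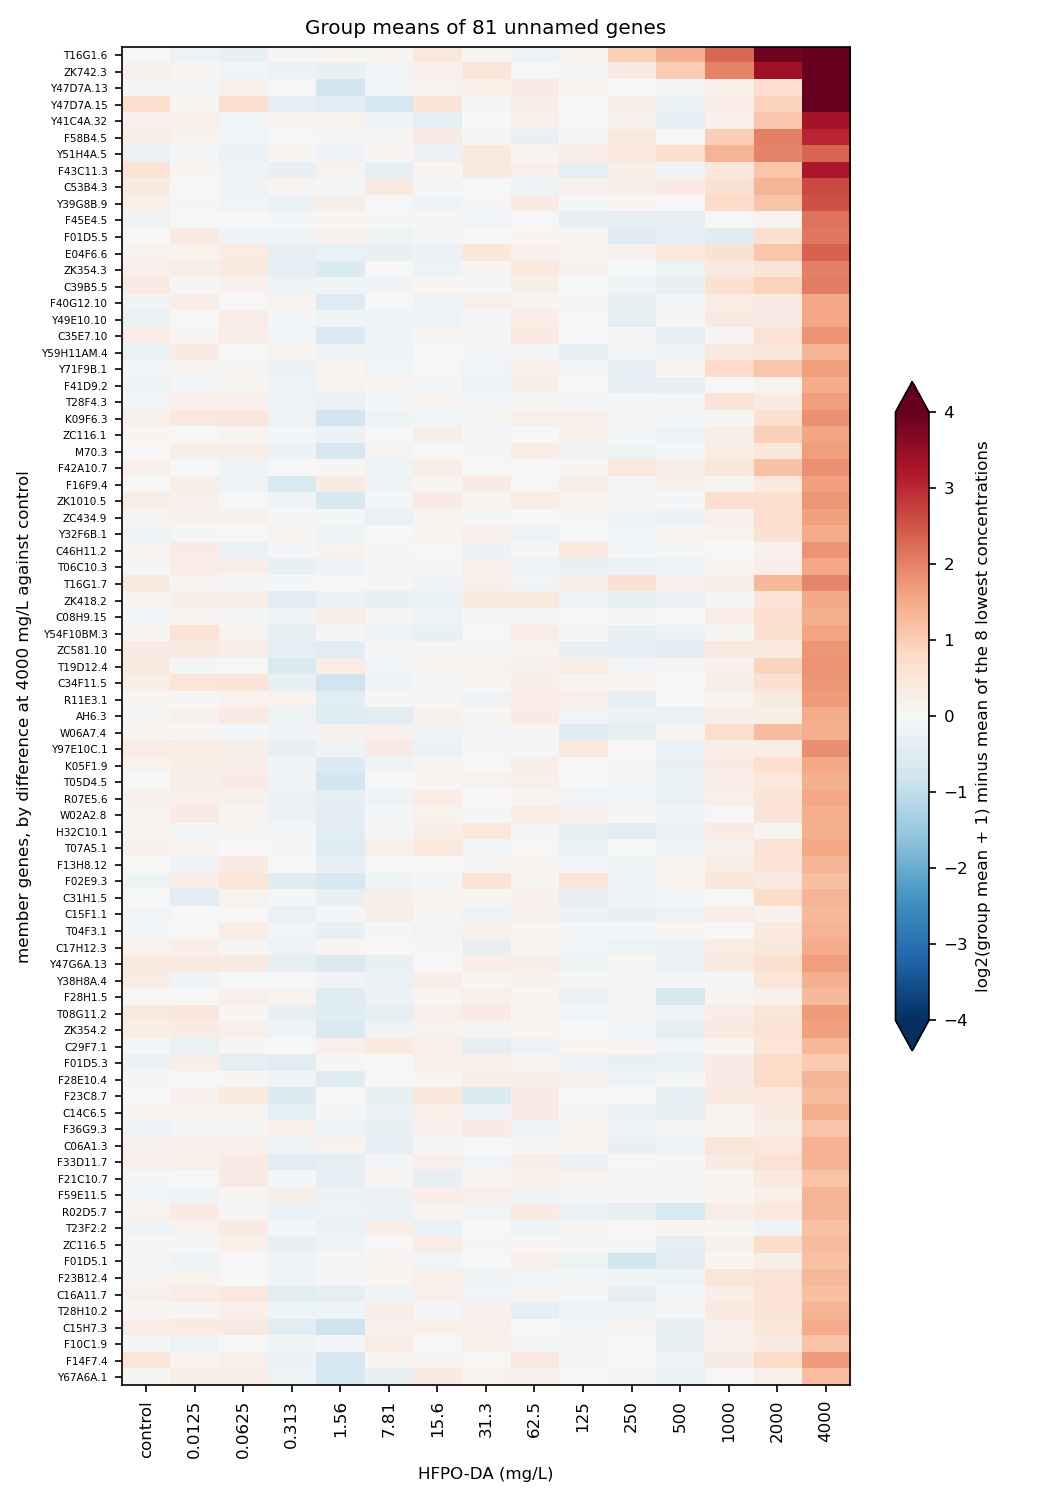
Group means of the 81 genes as log2(group mean + 1) minus the mean of the 8 lowest concentrations, by concentration in mg/L with the control on the left and genes in order of their difference at 4000 mg/L. Colour is strongest at 4000 mg/L, where the median difference is 1.56 against 0.55 at 2000 mg/L, and reaches down to 500 mg/L in T16G1.6 and ZK742.3.

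By position, 20 of the 81 genes lay on chromosome V, 17 on II, 15 on IV, 13 on I, 12 on III and 4 on X. Of the 2935 genes with a sequence name and a mean of at least 10, these are 3.90% of those on V, 3.31% on II, 2.76% on IV, 2.39% on I, 2.49% on III and 1.18% on X. Most of the 81 had no other of them nearby: 12 had another within 20 kb. The same share for the 2935 genes is not given here, so nothing is read from this count.

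Only 1 stretch held 3 or more of them within 20 kb of the next. On chromosome II, 13981365 to 14002306, Y39G8B.9 on the plus strand was followed by F01D5.1, F01D5.3 and F01D5.5 on the minus strand, and these 4 were all the measured genes in the 20942 bases. Y39G8B.9 (13981365 to 13981785) had 54.7, 93.5, 33.4 and 134 at 4 g/L, against 17.7, 13.0, 13.6 and 13.8 in the control. F01D5.1 (13996958 to 13997581) had 35.8, 40.1, 29.2 and 42.2 at 4 g/L, against 10.4, 14.4, 19.3 and 15.5 in the control. The wells at 4 g/L of both genes were all above their control wells, those of Y39G8B.9 over a wider range.

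F01D5.3 (13999059 to 14000144) had 51.3, 44.8, 39.6 and 29.4 at 4 g/L, against 26.9, 17.4, 11.4 and 10.1 in the control, and its highest control well lay close to its lowest treated well. F01D5.5 (14001686 to 14002306) had 43.3, 54.7, 48.2 and 99.0 at 4 g/L, against 11.1, 19.8, 10.6 and 12.6 in the control. The differences between the 4 neighbours at 2 g/L were not tested. There Y39G8B.9 rose by 1.15 ± 0.21 on the log2 scale (SE, limma adjusted p = 0.00046), while F01D5.3, F01D5.5 and F01D5.1 stood at 0.72 ± 0.21, 0.59 ± 0.24 and 0.29 ± 0.24 and did not pass the threshold (adjusted p = 0.0923, 0.267 and 0.641). F01D5.3 passed it in 5 of 22 alternatives.

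A further 4 pairs of neighbours lay within 20 kb. T16G1.7 and T16G1.6 follow each other on the minus strand of chromosome V, and both rose at 2 g/L. They differed in size: at 4 g/L T16G1.7 had 75.5, 89.01, 66.5 and 77.8, against 30.8, 19.9, 20.4 and 32.4 in the control, a log2 difference of 1.57 beside the 5.45 of T16G1.6. The Y47D7A pair shares its strand and the order of its wells, as given above.

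ZC116.1 and ZC116.5, also on V and on opposite strands, had log2 differences of 1.64 and 1.27 at 4 g/L, and ZC116.1 alone was called at 2 g/L (0.97 ± 0.22, SE, limma adjusted p = 0.0101). erg-28, which overlaps the end of ZC116.5 by 15 bases on the opposite strand, had a difference of -0.98 at 4 g/L against the control. ZK354.3 and ZK354.2 on chromosome IV had differences of 1.90 and 1.35 at 4 g/L. Between them lies msp-59, a gene of the major sperm protein family, which had 212 ± 51.1 at 4 g/L and 138 ± 63.7 in the control (SD, n = 4 each), with overlapping wells.

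The 81 genes had a median coding length of 1041 bases and a median of 6 exons, beside 898.5 bases and 5 exons for the 2935 genes they were drawn from. Per kb of coding length the mean deposited value over all libraries ran from 4.13 to 422 (median 20.9). It was highest in C39B5.5 (III, 2208164 to 2211242, plus strand), which had 649, 759, 485 and 1299 at 4 g/L, against 453, 142, 249 and 144 in the control. C14C6.5 (V, 536628 to 537418, plus strand), at 213 per kb, had 238, 253, 198 and 329 at 4 g/L, against 120, 97.3, 88.2 and 96.7 in the control. T04F3.1 (V, 11740065 to 11754111, plus strand, 17 exons) was at 20.9 per kb, with 337, 485, 376 and 784 at 4 g/L, against 259, 198, 103 and 189 in the control. None of these 3 was called at 2 g/L, where their log2 differences were 0.84 ± 0.26, 0.36 ± 0.14 and 0.41 ± 0.20 (SE, limma adjusted p = 0.106, 0.244 and 0.355). C39B5.5 was called in 4 of 22 alternatives (adjusted p from 0.00024 to 0.732), C14C6.5 in 1 (from 0.0171 to 0.802) and T04F3.1 in 0.

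One well at 4 g/L was often the highest. Replicate 4 held the highest of the 4 treated values in 61 of the 81 genes (75.3%), against 31.4% of all genes. Its median log2 difference from the control mean was 2.14, while those of replicates 1, 2 and 3 were 1.34, 1.47 and 1.16. Without replicate 4, 56 of the 81 genes kept a difference of at least 1.2 and the lowest was 0.83. Without replicate 1, 2 or 3 this was 80, 77 and 80. Replicates 2 and 4 were both above replicates 1 and 3 in 60.5% of the 81 genes, against 21.4% of all genes.

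The well-to-well pattern changed when each treated well was set against the low wells of its own set of 12 sample numbers, on reads over library size. The medians of the 81 genes at 4 g/L were then 1.82, 1.30, 1.75 and 1.56 for replicates 1 to 4, so that replicate 4 no longer stood highest. All 81 genes were above 0 in each set, where 46.2%, 48.9%, 50.9% and 47.5% of all genes were, but these are the wells that chose the genes and nothing is read from that count. The 2 g/L wells of replicates 1 to 4 had 76, 69, 72 and 63 of the 81 genes above 0, beside 50.7%, 52.0%, 56.3% and 51.2% of all genes. With the set as a term in the fit on reads, the differences between 4 g/L and the control had a lowest value of 1.09 and were at least 1.2 in 80 of the 81 genes. The spread of the Y47D7A pair remained within sets, where Y47D7A.13 was at 2.99, 4.42, 2.62 and 5.65 and Y47D7A.15 at 3.93, 4.64, 2.47 and 5.87 on the log2 scale.

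**Figure D4:**
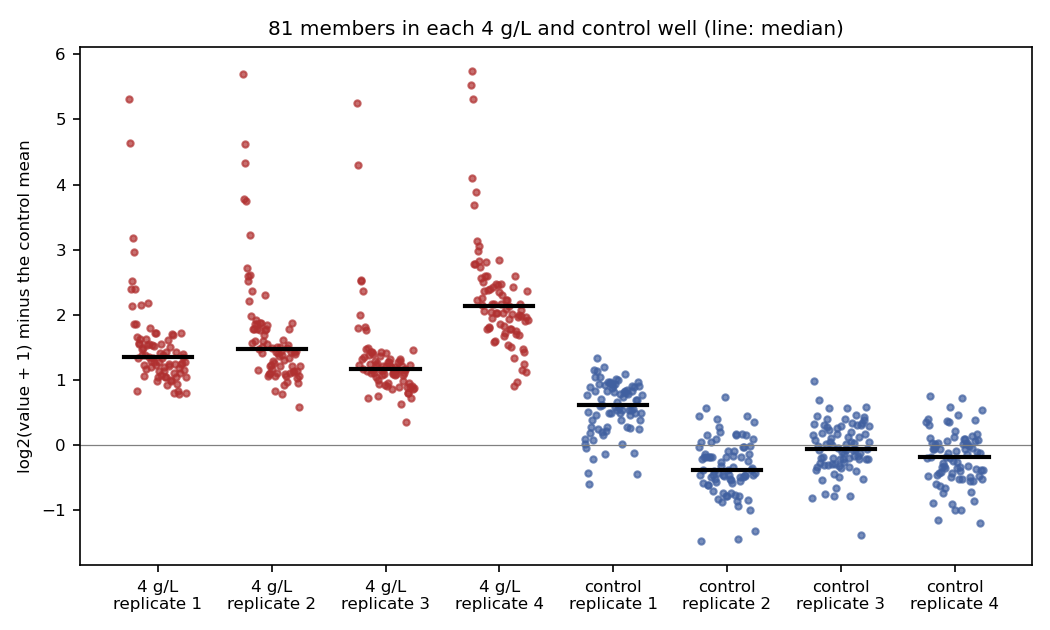
Each of the 81 genes in each 4 g/L well (red) and control well (blue), as log2(value + 1) minus the gene's control mean; black lines are medians over the genes. The median is 2.14 in replicate 4 at 4 g/L and 1.16 to 1.47 in the other three 4 g/L wells.

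The 81 genes varied more between wells than most genes also where HFPO-DA was low. The SD between wells of the 8 lowest concentrations had a median of 0.55 on the log2 scale in the 81 genes, beside 0.45 in the 106 named genes and 0.33 over all genes, and 77 of the 81 were above the median of all genes. SDs are larger at low read numbers, and these genes were not matched for level. Among the 14 genes with a call at 2 g/L the median SD was 0.41, among the 67 others 0.57. The fit that made the call includes these same wells and favours genes of small spread, so nothing is read from this difference.

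To describe what these deviations follow, each gene was set against the mean log2 level of tissue marker lists over the 32 low wells, after group means were removed. A Pearson r of at least 0.5 to the sperm list (8 measured genes such as the msp genes of the major sperm protein) was found in 50 of the 81 genes (61.7%), against 13.5% of all genes. For 84 cuticle collagens named col it was 39 of 81 (48.1%), against 11.3% of all genes. Muscle markers reached it in 22 of 81 (27.2%; 37 by Spearman's rho), against 11.4% of all genes, and neuron markers in 16 (19.8%), against 3.22%. For cuticle and hypodermis markers it was 8 of 81 (9.88%), against 3.46% of all genes, and for intestine markers 3 (3.70%), against 8.05%. Oocyte and yolk markers reached it in 1 gene each, against 9.94% and 11.1% of all genes. The likeness was not particular to genes without a name. Of the 106 named genes that pass the same thresholds, 43.4% reached an r of at least 0.5 to the sperm list and 41.5% to the collagens. For muscle, neuron, and cuticle and hypodermis markers the shares of these 106 were 23.6%, 13.2% and 16.0%. For intestine markers it was 6.60%, and for oocyte and yolk markers 0.943% each. Among the 14 genes called at 2 g/L, 2 reached it to the sperm list, Y39G8B.9 and ZC116.1, and among the 67 others 48 did. Since the call favours genes of small spread in these same wells, the 2 counts cannot be compared.

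In the 81 genes, most of the likeness to the sperm list and the collagens went with the sets of sample numbers. With the sets removed as well, 7 of the 81 genes (8.64%) reached an r of 0.5 to the sperm list, against 5.06% of all genes, and 2 of 81 (2.47%) to the collagens, against 4.84% of all genes. The 106 named genes kept more of it, with 19.8% to the sperm list and 25.5% to the collagens. The 32 wells share sets and replicate factors and are not independent, so no p is given.

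Summed values of the marker lists overlapped between 4 g/L and the control for some tissues and not for others. The summed value of the 8 sperm genes was 2384 to 4406 in the wells at 4 g/L and 1158 to 3250 in the control wells. That of the 84 collagens was 130988 to 182027 at 4 g/L and 123324 to 147809 in the control, with overlapping wells for both lists, while the median log2 difference of the 84 collagens was 1.32. The 10 measured cuticle and hypodermis markers summed to 12192 to 17248 at 4 g/L and 14772 to 20217 in the control. Their median log2 difference was 1.18, so the sum does not show the direction of most of them. In 0 of these 10 was every treated well above every control well. The 10 intestine markers summed to 15824 to 17802 at 4 g/L and 13245 to 21649 in the control, with a median log2 difference of 0.36. Muscle markers summed to 3798 to 5350 at 4 g/L and 2792 to 3809 in the control, and neuron markers to 328 to 463 at 4 g/L and 268 to 351 in the control, all 4 of these lists with overlapping wells. The 5 yolk protein genes summed to 8361 to 17014 at 4 g/L and 18790 to 29712 in the control. The 9 oocyte and embryo genes summed to 3403 to 4847 at 4 g/L and 5103 to 6716 in the control. For these 2 lists the wells at 4 g/L and the control wells did not overlap. The low wells spread more widely, from 9103 to 37133 (median 26931) for yolk and 3071 to 10613 (median 6332) for oocyte and embryo. All sums at 4 g/L were below these medians, but only the lowest yolk sum, 8361, was outside these ranges. Gene by gene, every treated well was above every control well in 27 of the 84 collagens, 3 of 10 intestine and 3 of 6 muscle markers. This held for 2 of 8 neuron, 1 of 8 sperm and 0 of the oocyte and yolk genes, and for 8.11% of all genes. Median log2 differences at 4 g/L against the control were 0.72 (sperm), 0.55 (muscle), 0.41 (neurons), -0.53 (oocyte and embryo) and -1.32 (yolk). No marker of any of the lists was at 0 reads at 4 g/L or in the control. The part of any of these tissues in the differences of the 81 genes was not tested.

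**Figure D5:**
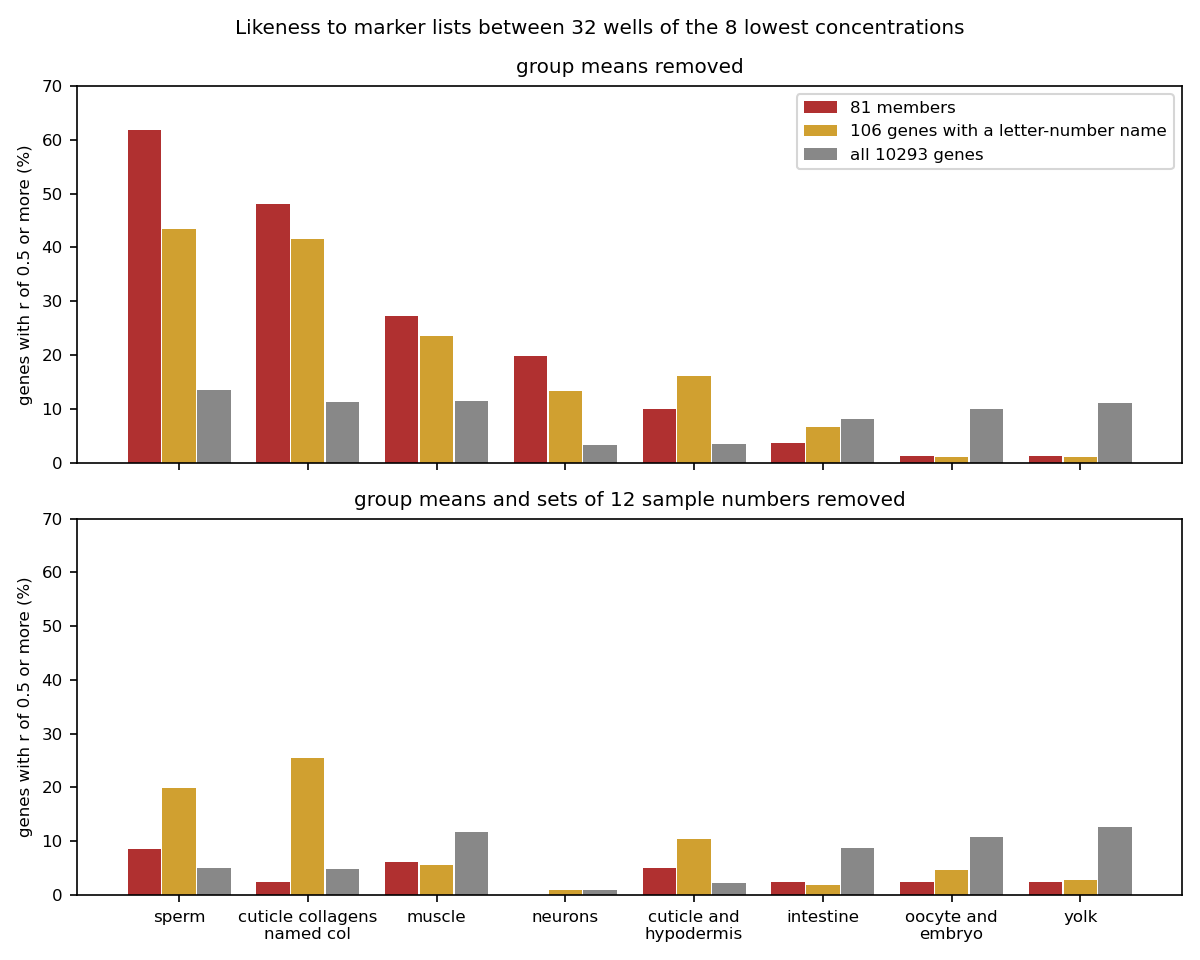
Share of genes with a Pearson r of at least 0.5 to each marker list over the 32 wells of the 8 lowest concentrations, for the 81 genes (red), the 106 named genes that pass the same thresholds (yellow) and all 10293 genes (grey). In the upper panel group means were removed and 61.7% of the 81 genes reach it to the sperm list; in the lower panel the sets of 12 sample numbers were removed too and 8.64% do.

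At the edge of the rule, Y67A6A.1 on chromosome I and F14F7.4 (III, 13028380 to 13029708, minus strand) lay just inside the difference of 1.2, at 1.201 and 1.21. Y67A6A.1 had 58.5, 77.7, 61.8 and 127 at 4 g/L, against 56.8, 24.3, 34.2 and 25.2 in the control, so that 1 control well almost touched the lowest treated well. Just outside were Y47G6A.26 and F36A2.11, at 1.198 and 1.195. F16F9.4 and F33D11.7 were just inside the mean of 10, at 10.03 and 10.19, and T09A12.1 and K09H9.8 just outside, at 9.99 and 9.88.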

How the data were processed

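Messenger RNA of whole worms was sequenced at shallow depth, with 60 libraries in 15 groups of 4 taken from the sample titles. The authors deposited 1 normalised signal per gene and library on a linear scale. The submitters' processing notes name the build WBcel235 and, with no role or order, edgeR 3.36.0, HTSeq 2.0.1, STAR 2.7.10a, Trimmomatic 0.39 and UMI-tools 1.1.2; how the signal was made from them is not stated. Subtracting 1 from a deposited value and dividing by a factor left 1 plus the scaled read number of the library. The factor belongs to a gene and a replicate number (0.445 to 3.18), so the deposited signal was already adjusted between replicate numbers. With it, 100% of 617880 values gave whole reads within 0.0001 reads, and 1.07% were reads of 0, held as 0.5.

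Values were tested as log2(value + 1), where changes of genes with low values come out too small, in limma 3.58.1 (R 4.3.3) with an intensity trend. The 10293 genes with a value of at least 5 in at least 4 libraries entered. The 13 concentrations below 4 g/L were fitted as group means. Tests were two-sided, with a threshold of 0.05 on the Benjamini-Hochberg adjusted p. On simulated tables of 10296 genes, 50 genes were given each log2 change of 0.5, 1, 1.5 and 2. Of these, 32%, 92%, 94% and 100% were called at 2 g/L, and 0.625% of calls were unchanged genes. Whether these shares hold for the 81 genes, or with deviations shared within sets of sample numbers, was not tested. The 81 genes had a median SD between low wells of 0.55, against 0.33 over all genes. SEs at 4 g/L come from a fit of all 60 libraries. Ratios of reads pool the 4 wells, with exact binomial 95% intervals from scipy 1.17.1. Tables and plots used Python 3.11.15, numpy 2.4.6, pandas 2.3.3 and matplotlib 3.10.9.

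The members and lists were chosen with earlier results of these data known. Genes are named as the 8 largest differences at 4 g/L, the 8 largest called at 2 g/L, those called at lower concentrations, the 3 highest means, members of the clusters of 3 or more, the 2 on each side of each threshold, and the 4 largest not called at 2 g/L; others named were chosen after their values were seen. The labels do not say that a replicate number marks a shared batch, and the fit has no block. The alternatives were other pseudocounts, filters, rescalings and baselines, the replicate block, a set term, voom on the reads and leaving out wells. The set term and the replicate block on reads and the fit without libraries of wide residuals were added after seeing the data. Comparisons by product family and by promoter motif were not run.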

Additional observations from a re-analysis of the deposited data

Results flagged for a closer look

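Among 72 groups of 4 wells of the named genes, 3 held a well far from the other three, and chance gives about 5% of groups. F14F7.4 had 73.4 in its highest well at 4 g/L, F45E4.5 had 22.8 in its highest well at 2 g/L, and F43C11.3 had 37.2 in its highest control well.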

How the results depend on the processing

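The number of the 81 genes called higher at 2 g/L was 14, and 14 with the replicate block, 15 with voom on the reads, 18 with the set term on reads and 15 without the libraries of wide residuals, but 22 with the set term on the deposited values. Leaving out single wells or replicate numbers gave 10 to 21 genes at 2 g/L, 3 to 4 at 1 g/L, 1 to 2 at 0.5 g/L, 0 to 0 at 0.25 g/L and 0 to 0 at 0.125 g/L. The slope was called in 9 genes, in 4 to 11 with replicates left out, and in 37 with all 60 libraries, which include those that chose the genes. With a pseudocount of 5, 53 genes met the rule, all of them among the 81. With a pseudocount of 0.5 it was 84 genes and with median ratio rescaling 88, each including all 81. With the 32 low wells in place of the control wells, 73 genes met it, and only 48 of them were among the 81. Of 526 values of the named genes at 2 g/L under alternatives, 496 kept their direction and side of the threshold, 22 gained a call and 6 lost one. F45E4.5 ranged from -0.10 (without replicate 4) to 0.28 with replicates left out, and was at -0.06 without 2 g/L replicate 4; the cause was not tested. The deposited values were adjusted per gene and replicate number, so they cannot show whether same-numbered wells deviate together. On reads over library size, 13 of 20 same-number correlations were over 0.1 and 7 below 0 (-0.35 to 0.42), and 8 of 20 wells correlated best with their own number, so not every pair met the limit of 0.1 and a batch by number was not settled. The replicate block gave 3 genes at 1 g/L, 2 at 0.5 g/L and 9 for the slope on the deposited values, and 14, 3, 2 and 8 at 2, 1 and 0.5 g/L and for the slope on reads. The control wells held under 20 reads in 3 of the 81 genes, which limits the precision of their differences.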
